A study of Mus musculus with 6 samples.

Results

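A set of 42 genes of the extracellular matrix were followed in thymus RNA from 2 F1 crosses of mice. They were chosen by name, with earlier results of these data known. The genes encode collagens, laminins, proteoglycans, elastic fibre components and other secreted matrix proteins. Where several probe sets carried a gene's symbol and no other, the one with the highest average level stood for the gene. Of 42 listed genes, 41 had such a probe set, out of 18193 genes on the array, and 39 passed the filter on dim probe sets and were tested, out of 12852 genes. Fbn1 had no probe set under this rule and is not analysed here. Nid2 and Vcan were under the 40th percentile on each of the 6 arrays and were not tested.

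The females compared were adults of the AKR cross, (AKR/J x FVB/NJ)F1, and of the DBA cross, (DBA/2J x FVB/NJ)F1, with 3 Affymetrix arrays each. FVB/NJ is a parent of both, so the contrast is between an AKR/J and a DBA/2J genome beside a shared one, and the labels name no treatment other than Avertin anaesthesia at death in either. The study asked which genes differ between the genotypes at baseline. Separate animals or pools are not stated in the labels, so p-values cover only the spread among these samples, and that spread may be technical. Values are log2 probe set levels, differences are the AKR cross minus the DBA cross, so negative means less in AKR. Genes with an adjusted p under 0.05 are termed called (limma, Benjamini-Hochberg over 12852 genes). Precision is limited by having 3 arrays per cross.

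The thymus is a dense organ of developing T cells held in a small scaffold of epithelium, fibroblasts and vessels. Its capsule, septa and vessel walls are built by mesenchymal cells from fibril-forming collagens, collagen VI and elastic fibres. Basement membranes of laminin, collagen IV, nidogen and perlecan line its vessels and the epithelium beneath the capsule. In whole thymus RNA, fewer cells of a type and less RNA per cell cannot be told apart.

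The matrix genes that passed the test were all higher in the DBA cross. Of 39 tested, 12 were higher in the DBA cross (30.8%, where 11.5% of all genes tested were), 0 were higher in the AKR cross (12.5% of all genes tested) and 27 were not called. In both directions together, 24% of all genes tested were called by limma. The 12 genes were Col6a3, Nid1, Lamb1, Ogn, Efemp1, Col5a2, Col14a1, Postn, Mgp, Lox, Col6a2 and Col4a1. At an unadjusted p under 0.05 (limma), 14 of 39 members passed, where 37.9% of all genes tested did. All 14 were in the DBA direction, in which 17.3% of all genes passed, and the added pair was Col3a1 (-0.41) and Timp3 (-0.29). Of the 39 members, 28 had a negative difference and 11 a positive one. The median difference was -0.16, against 0.03 for all genes tested. Most of the differences were small. Of the 12 called members, 7 differed by less than 1.5-fold, and the folds ran from 1.2 to 3.86. Called differences of at least 1.5-fold were found for 5 members, all in the DBA direction (12.8%, against 4.22% of all genes tested in either direction and 2.72% in this one). At 2-fold or more Col6a3 was the single member (2.56%, against 0.7%). Quantile normalization moved the share of all called genes that were higher in the AKR cross from 52.0% to 62.1%, and median centring moved it to 62.0%. Under each of these, 10 members were called, all in the DBA direction.

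The groups did not overlap for 16 members, against 43.9% of all genes tested. Of these, 14 were in the DBA direction (35.9%, against 19.4% of all genes) and 2 in the AKR direction (5.13%, against 24.5%). The members varied more between arrays of 1 cross than most genes did, with a median within-cross SD of 0.14 against 0.11 for all genes tested. DBA replicate 1 held the highest value of the 6 arrays for 22 of 39 members. AKR replicate 2 was the highest of the AKR arrays for 28 members. Without DBA replicate 1, 10 members were called higher in the DBA cross and 1, Sparc, in the AKR cross. The share of all genes called higher in the DBA cross was then 8.39%. The median difference of the members moved to -0.09 without that array. DBA replicate 1 also stood apart in markers of skeletal muscle, whose values are given with the marker lists.

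**Figure D1:**
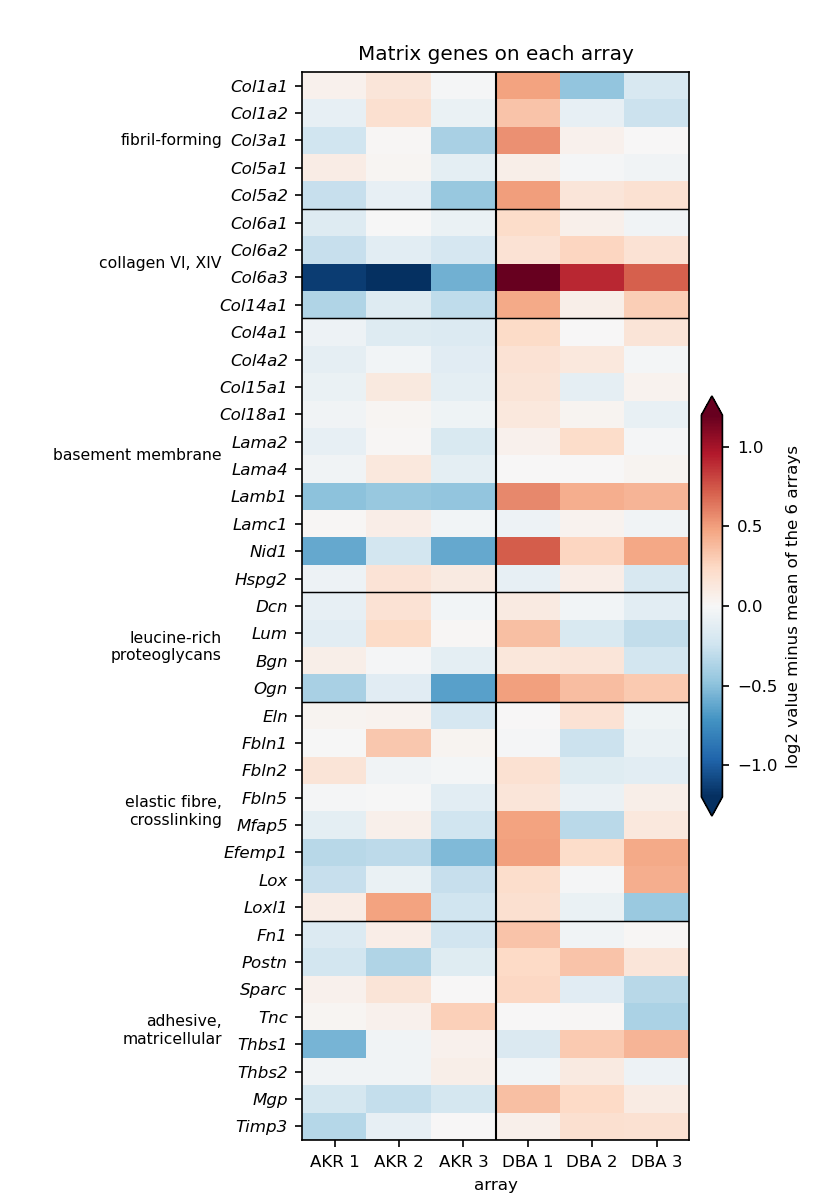
Level of each of the 39 tested matrix genes (rows, grouped by role) on each array (columns), as the log2 value minus the gene's mean over the 6 arrays, with red for higher and blue for lower; colours saturate at 1.2. The rows of Col6a3, Nid1, Lamb1, Ogn and Efemp1 are blue on all 3 AKR arrays and red on all 3 DBA arrays, and DBA replicate 1 is the reddest column, with the highest value for 22 of 39 genes.

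Promoter sequences are shown for the 4 called members with the largest differences among those that the RefSeq promoter table (GRCm38.p6) holds. They were picked by their calls, so their shared direction is not a result. The table held 27 of the 42 genes, 8 of the 12 called ones among them. Each sequence is the stretch before the first base of the gene in the 250 bases upstream of its first listed start site, 5′ to 3′ on the gene's strand. Capitals mark matches to any of 4 motifs on either strand. The first motif, known as the TATA box, was searched with the letters TATAAA. The second was the letters CCAAT, which bind factors near many start sites and give that box its name. The GC box was searched for as the letters GGGCGG, and the site of the AP-1 factor was searched for as the letters TGAGTCA.
Col6a3: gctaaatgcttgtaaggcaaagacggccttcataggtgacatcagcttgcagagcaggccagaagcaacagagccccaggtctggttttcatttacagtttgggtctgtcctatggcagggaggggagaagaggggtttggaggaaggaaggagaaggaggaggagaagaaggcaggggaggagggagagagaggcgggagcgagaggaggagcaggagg
Nid1: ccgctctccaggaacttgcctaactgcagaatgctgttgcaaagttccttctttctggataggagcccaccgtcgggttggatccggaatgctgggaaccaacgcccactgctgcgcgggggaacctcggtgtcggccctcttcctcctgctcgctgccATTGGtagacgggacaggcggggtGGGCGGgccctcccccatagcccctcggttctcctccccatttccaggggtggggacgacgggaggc
Lamb1: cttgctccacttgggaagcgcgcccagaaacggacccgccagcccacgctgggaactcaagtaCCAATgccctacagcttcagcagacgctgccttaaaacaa
Ogn: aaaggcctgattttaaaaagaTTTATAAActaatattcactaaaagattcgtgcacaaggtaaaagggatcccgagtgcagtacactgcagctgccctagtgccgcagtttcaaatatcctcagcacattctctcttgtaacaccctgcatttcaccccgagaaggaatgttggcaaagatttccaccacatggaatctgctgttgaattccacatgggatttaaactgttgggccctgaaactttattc
The Col6a3 sequence is at chr1:90844002-90844221 on the minus strand, the Nid1 sequence at chr13:13437352-13437601 on the plus strand, the Lamb1 sequence at chr12:31265043-31265145 on the plus strand and the Ogn sequence at chr13:49607765-49608014 on the plus strand. The Lamb1 stretch is 103 bases long, since the gene itself begins within the window, and it overlaps the lncRNA gene Gm32899. It ends at -148 from the listed start site, and the Col6a3 stretch, cut likewise to 220 bases, ends at -31. The Nid1 window overlaps the pseudogene Gm7426, and the Ogn window lies within the gene Cenpp. Nid1 had a CCAAT box at positions -91 to -87 and a GC box at -67 to -62, counted from the start site. Lamb1 had a CCAAT box at -187 to -183, counted from its listed start site, which lies inside the gene. Ogn had a pair of overlapping TATAAA matches on opposite strands at -229 to -222, and none of the 4 motifs was found in the Col6a3 stretch. Over the full 250 upstream bases, the GC box was in 4 of 8 called and 12 of 19 other members, against 32.9% of 27025 genes in the table. Lamb1 is counted here through 2 GC boxes in the part within the gene, which is not printed. The CCAAT box was in 3 of 8 and 6 of 19, against 34.5%. The TATA box was in 1 of 8 and 3 of 19, against 13%, and the AP-1 site in 0 of 8 and 1 of 19, against 4.43%. These are matches of letters and not measured binding sites.

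Collagen VI forms beaded microfilaments around cells and is assembled from 3 chains, encoded here by Col6a1, Col6a2 and Col6a3. Of the 4 genes for collagen VI and the fibril-associated collagen XIV, 3 were higher in the DBA cross (75%, against 11.5% of all genes). The AKR cross had 0 higher, and 1 was not called. Col6a3 read 7.33, 7.26 and 7.89 on the AKR arrays and 9.77, 9.37 and 9.18 on the DBA arrays. The 3 DBA values all lay above the highest AKR value, and AKR replicate 3 was the highest of its cross. The difference was -1.95 ± 0.19 (SE, adjusted p = 0.000286, limma), a 3.86-fold higher level in the DBA cross, the largest of all 39 members. It stayed between -2.15 and -1.79 in all 17 other settings and was called in each. Col6a3 had 1 probe set, so no other could check this size. Probe sequences were not compared with the genomes of the strains. Col6a2 read 9.0, 9.15 and 9.07 against 9.46, 9.54 and 9.45, with no overlap (-0.41 ± 0.07, adjusted p = 0.00463, limma). Another Col6a2 probe set, of a type that can match several transcripts, gave an uncalled -0.25. Col6a1, which neighbours Col6a2 on the chromosome, overlapped between the crosses, with means of 8.36 ± 0.07 for AKR and 8.52 ± 0.13 for DBA (SD, n = 3 each). Its difference was -0.16, with a 95% interval from -0.36 to 0.04. The 3 chains of this assembly had differences of unequal size, though no test between chains was run.

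Col14a1 encodes collagen XIV, which sits on the surface of collagen fibrils. It read 6.24, 6.44 and 6.30 on the AKR arrays and 7.06, 6.67 and 6.90 on the DBA arrays, without overlap. The DBA level was 1.46-fold higher (-0.55 ± 0.12, adjusted p = 0.0115, limma), and a second tested probe set of the gene was called in the same direction (-0.36). The Col14a1 call was lost without sharing of variance between genes (adjusted p = 0.0730, limma).

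Fibril-forming collagens give connective tissue its tensile strength. Of 5 such genes, 1 was higher in the DBA cross (20%, against 11.5% of all genes tested) and 0 in the AKR cross. The other 4 were not called, and the median difference of the 5 was -0.01. Col5a2, a chain of collagen V, which takes part in starting fibrils, read 7.45, 7.63 and 7.27 against 8.23, 7.87 and 7.91. All 3 DBA values were above the AKR values, with DBA replicate 1 the highest, and the difference was -0.55 ± 0.13 (1.47-fold, adjusted p = 0.0145, limma). This call was lost without sharing of variance between genes (adjusted p = 0.0967, limma). Col3a1, the collagen III gene and the chromosomal neighbour of Col5a2, read 9.58, 9.84 and 9.43 against 10.37, 9.87 and 9.83. The lowest DBA value lay just under the highest AKR value, so the groups overlapped, and the difference of -0.41 was not called (95% interval -0.75 to -0.07, adjusted p = 0.0790, limma).

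Neither collagen I chain gene was called. Col1a1 read 6.54, 6.63 and 6.47 on the AKR arrays and 6.96, 6.01 and 6.29 on the DBA arrays. The DBA arrays spanned the AKR values, and this gene had the largest within-cross SD of the members, at 0.35. Col1a2 read 8.36, 8.65 and 8.37 against 8.79, 8.35 and 8.19, with DBA replicate 1 again the highest. The differences were 0.12 (95% interval -0.34 to 0.59) for Col1a1 and 0.01 (-0.32 to 0.35) for Col1a2. A second tested probe set gave an uncalled -0.06 for Col1a1 and an uncalled -0.38 for Col1a2. The Col5a1 probe sets were unlike each other. The one read here differed by -0.01 (95% interval -0.22 to 0.21), another by -0.34, which was called higher in the DBA cross over all probe sets tested (adjusted p = 0.0419, limma), and the last by -0.23, which was not. Of all probe sets tested, 15% were called in the DBA direction and 12.2% in the AKR direction.

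**Figure D2:**
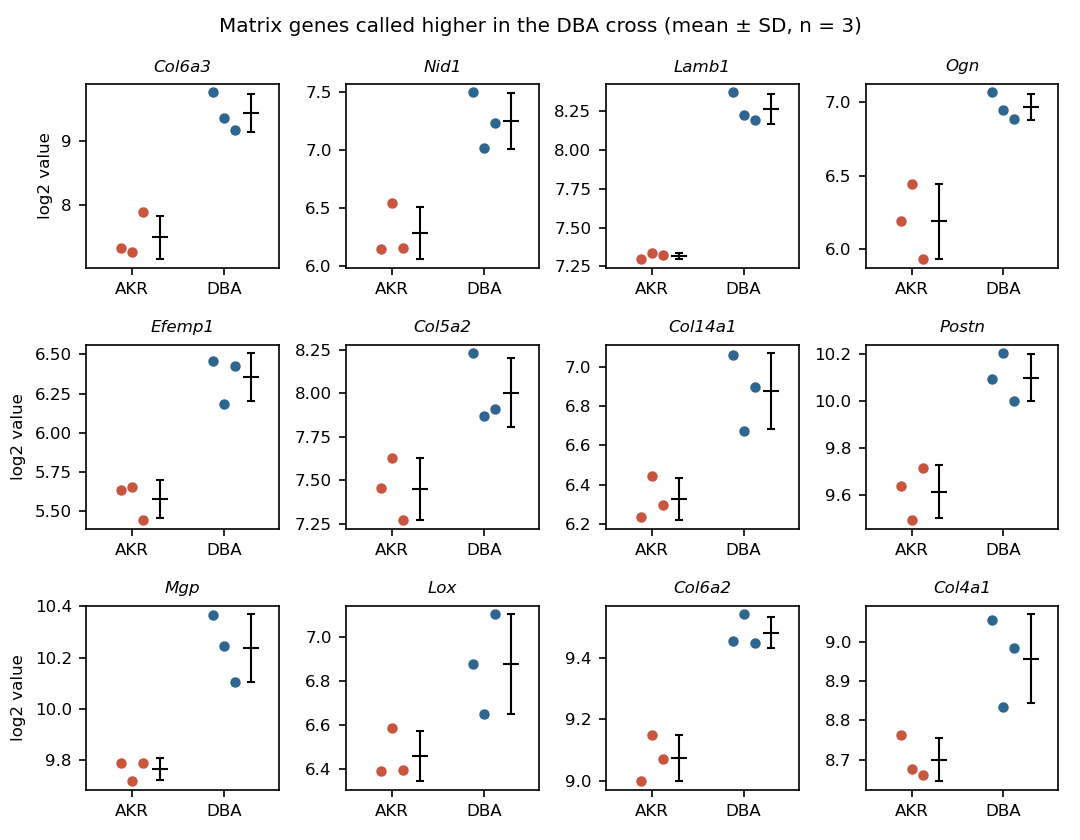
Log2 value on each array (points, red for the AKR cross and blue for the DBA cross) of the 12 matrix genes called higher in the DBA cross, with mean ± SD (bars, n = 3 each) and a scale of its own in each panel. In every panel the 3 DBA points lie above the 3 AKR points, from a 3.86-fold difference for Col6a3 to a 1.2-fold difference for Col4a1.

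Basement membranes are sheets of laminin and collagen IV networks linked by nidogen and perlecan. Of 10 tested genes of these sheets, 3 were higher in the DBA cross (30%, against 11.5% of all genes tested). The AKR cross had 0 higher, 7 were not called, and the median difference was -0.11. Nid1, which encodes the linker nidogen 1, read 6.15, 6.54 and 6.16 on the AKR arrays and 7.5, 7.02 and 7.23 on the DBA arrays. The groups lay well apart, with a difference of -0.97 ± 0.15 (1.95-fold, adjusted p = 0.00270, limma). A second tested Nid1 probe set gave an uncalled -0.34, and the call was lost without sharing of variance between genes (adjusted p = 0.0559, limma). Lamb1, a laminin beta chain gene, read 7.30, 7.34 and 7.32 against 8.37, 8.22 and 8.19. The AKR values were almost equal, with an SD of 0.02, and the difference was -0.95 ± 0.08 (1.93-fold, adjusted p = 0.000214, limma). That probe set can match several transcripts. Of the other tested Lamb1 probe sets, 1 differed by -0.93 and was called, and 1 differed by -0.17 and was not. With probe sets of multiple matches left out, a setting chosen after seeing the data, the last of these stood for Lamb1 and the call was lost (adjusted p = 0.355, limma).

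Col4a1 and Col4a2, the main collagen IV chains, start on opposite strands beside each other, and their promoter windows share 78 bases in the RefSeq table. Col4a1 read 8.76, 8.68 and 8.66 against 9.06, 8.83 and 8.98 and was called at -0.26 ± 0.08 (adjusted p = 0.0486, limma). The call was lost in 11 of 17 other settings, among them the removal of any array except DBA replicate 2 (lowest of these adjusted p-values 0.0702, limma, without AKR replicate 1). Col4a2 read 7.31, 7.39 and 7.28 against 7.59, 7.54 and 7.4. Its groups did not overlap, but the difference of -0.18 was not called (95% interval -0.38 to 0.02). The remaining basement membrane genes had intervals that included 0. These were Lama2 (-0.18) and Lama4 (-0.02), laminin alpha chains, Lamc1 (0.04), the laminin gamma chain, Hspg2 (0.14), which encodes perlecan, and Col15a1 (-0.05) and Col18a1 (-0.05), collagens with heparan or chondroitin sulphate chains. For Lamc1, which pairs with beta chains such as that of Lamb1 in laminin trimers, the 95% interval ran from -0.15 to 0.23. Nid2, the second nidogen gene, read between 4.52 and 4.89 on all 6 arrays and was too dim to be tested.

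Small leucine-rich proteoglycans bind collagen fibrils and growth factors. Of the 4 genes, Ogn was higher in the DBA cross (25%, against 11.5% of all genes tested) and 3 were not called. The median difference of the 4 was -0.01. Ogn, which encodes osteoglycin, read 6.19, 6.44 and 5.93 on the AKR arrays and 7.07, 6.95 and 6.89 on the DBA arrays. The lowest DBA value exceeded the highest AKR value, and the difference was -0.78 ± 0.13 (1.72-fold, adjusted p = 0.00418, limma). The other Ogn probe set gave an uncalled -0.46, and without sharing of variance between genes the Ogn call was lost (adjusted p = 0.0586, limma). Dcn, the decorin gene, read 10.08, 10.34 and 10.14 against 10.28, 10.14 and 10.05. These values overlapped fully, and the 95% interval of the Dcn difference, -0.17 to 0.23, excluded a change of the size seen for Ogn. Its neighbour Lum, the lumican gene, differed by 0.08 (95% interval -0.30 to 0.45), and Bgn, the biglycan gene, by -0.04 (-0.29 to 0.20). All 3 tested Bgn probe sets were uncalled.

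Elastic fibres have an elastin core, a fibrillin sheath and fibulins that join the parts, and lysyl oxidases crosslink both elastin and collagen. Of 8 tested genes, 2 were higher in the DBA cross (25%, against 11.5% of all genes tested) and 0 in the AKR cross. The other 6 were not called, and the median of the 8 was -0.09. Efemp1, which encodes the fibulin family member fibulin 3, read 5.64, 5.66 and 5.44 on the AKR arrays and 6.46, 6.18 and 6.42 on the DBA arrays. The groups were clearly separate, the difference was -0.78 ± 0.11 (1.71-fold, adjusted p = 0.00209, limma), and the call held in all 16 settings that tested the gene. Lox, a lysyl oxidase gene, read 6.39, 6.59 and 6.40 against 6.88, 6.65 and 7.10. The gap between the groups was small (-0.42 ± 0.13, adjusted p = 0.0420, limma), and the call was lost in 10 of 16 other settings. Those include the removal of any array except DBA replicate 2, with adjusted p-values from 0.0564 to 0.128 (limma). A second Lox probe set differed by -0.60 and was called. Loxl1, a related crosslinking gene, differed by 0.22 with a wide interval from -0.23 to 0.68.

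The other genes of this group had small differences. Fbln1, which encodes fibulin 1, read 6.92, 7.24 and 6.96 against 6.91, 6.67 and 6.85, higher on each AKR array than on any DBA array, and its difference of 0.23 was not called (95% interval -0.03 to 0.49). Fbln2 read 7.91, 7.72 and 7.73 against 7.94, 7.61 and 7.63 and overlapped. Fbln2 (0.06), Fbln5 (-0.10), Eln (-0.08), the elastin gene, and Mfap5 (-0.19), a microfibril gene, all had intervals that included 0. The widest of these was that of Mfap5, from -0.61 to 0.22.

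Matricellular proteins and matrix regulators act on cell adhesion and on the assembly of the matrix rather than as its scaffold. With the adhesive glycoprotein gene Fn1, 8 of these genes were tested. Of them, 2 were higher in the DBA cross (25%, against 11.5% of all genes tested) and 0 in the AKR cross. The other 6 were not called, and the median difference of the 8 was -0.25. Postn, which encodes periostin, a protein of collagen-rich tissue, read 9.64, 9.49 and 9.71 on the AKR arrays and 10.09, 10.20 and 10 on the DBA arrays. Mgp, the gene of matrix Gla protein, an inhibitor of calcification, read 9.79, 9.72 and 9.79 against 10.36, 10.25 and 10.10. Neither gene's groups overlapped. The differences were -0.49 ± 0.08 for Postn (1.40-fold, adjusted p = 0.00387, limma) and -0.47 ± 0.08 for Mgp (1.39-fold, adjusted p = 0.00336, limma), and both calls held in all 17 other settings. Timp3, an inhibitor of matrix metalloproteinases, differed by -0.29 without overlap and was not called (95% interval -0.53 to -0.05, adjusted p = 0.0800, limma). Of its 3 other probe sets, 1 was called in the same direction (-0.40).

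Fn1, the fibronectin gene, read 8.38, 8.63 and 8.32 against 8.89, 8.51 and 8.57, which overlapped (-0.21, 95% interval -0.49 to 0.06). Thbs1, a thrombospondin gene, differed by -0.37 (-0.80 to 0.07) and Thbs2 by -0.01 (-0.23 to 0.21). Tnc, which encodes tenascin C, was higher on each AKR array than on any DBA array, at 9.45, 9.47 and 9.70 against 9.42, 9.43 and 9.04, and its difference of 0.24 was not called (-0.02 to 0.51). The probe sets of Sparc, which encodes the collagen-binding protein osteonectin, disagreed. The one read here differed by 0.14 and was not called, with DBA values of 9.76, 9.37 and 9.17. A second differed by -0.39 and was not called, and the last, by 0.45, was called higher in the AKR cross (adjusted p = 0.0113 over all probe sets tested, limma). Without DBA replicate 1 the Sparc probe set read here differed by 0.31 and was called higher in the AKR cross (adjusted p = 0.0499, limma). No direction can be given for Sparc. The 8 Vcan probe sets, for the proteoglycan versican, were all too dim to be tested.

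**Figure D3:**
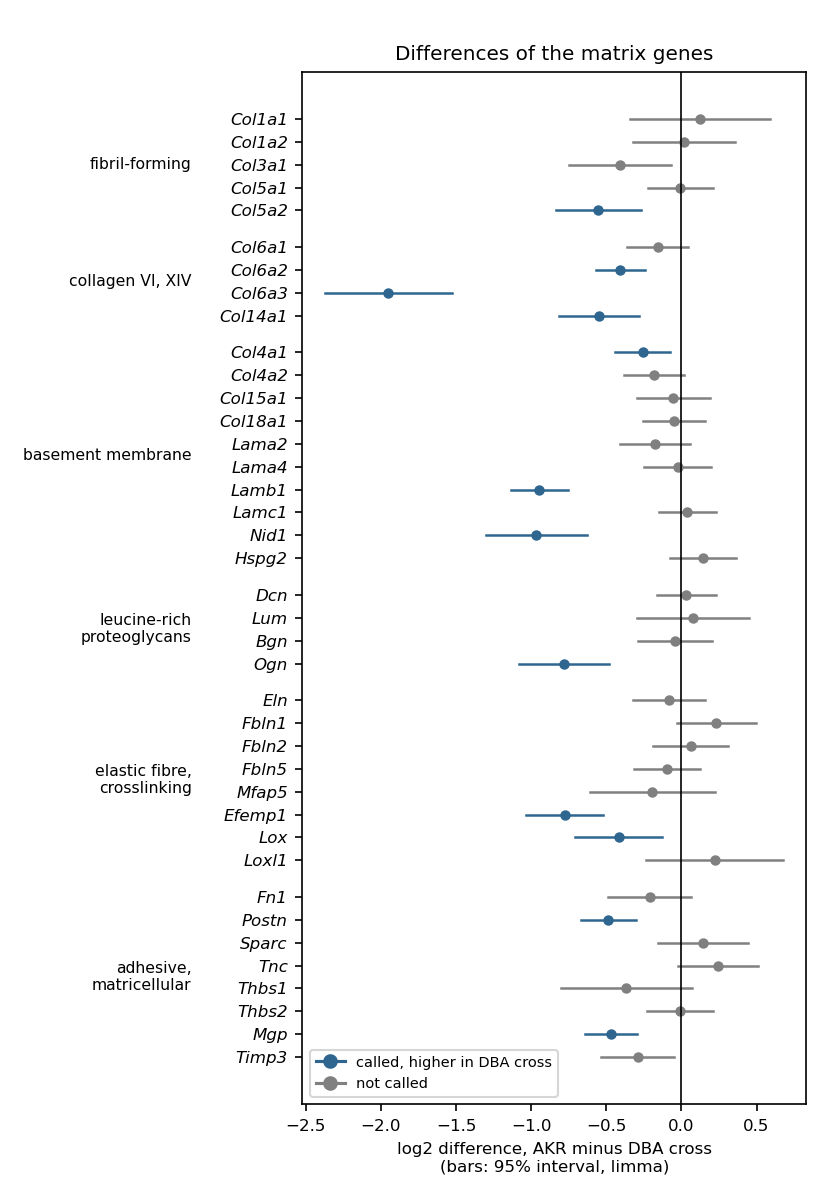
Log2 difference (AKR cross minus DBA cross, points) of each of the 39 tested matrix genes with its 95% interval from limma (bars), grouped by role; blue marks the 12 called genes and grey the 27 that were not. All blue points lie left of 0, in the DBA direction, and Col6a3 lies farthest, at -1.95.

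Other probe sets of the same genes gave a check on the ones read here. Of the 12 called genes, 7 had another tested probe set, 8 in all. Each of the 8 had a negative difference, and 3 were called higher in the DBA cross. Among uncalled genes, 21 other probe sets were tested, of which 2 were called higher in the DBA cross, 1 in the AKR cross and 18 were not called. Over all 68 tested probe sets of the members, 17 (25%) were called in the DBA direction and 1 (1.47%) in the AKR direction, where 15% and 12.2% of all probe sets tested were.

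**Figure D4:**
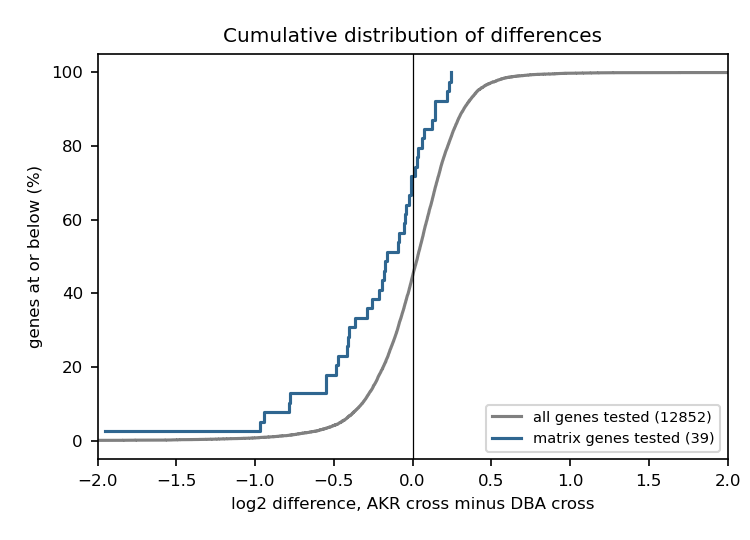
Cumulative share of genes (vertical axis, percent) at or below each log2 difference (horizontal axis, AKR cross minus DBA cross, drawn from -2 to 2) for the 39 tested matrix genes (blue) and all 12852 genes tested (grey). The blue curve lies left of the grey one, with medians of -0.16 and 0.03, and 71.8% of the matrix genes have a negative difference.

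Of 15 tested genes for collagen hydroxylation, folding and trimming, 3 were higher in the AKR cross, 0 in the DBA cross and 12 were not called, with a median difference of 0.08. These counts are near the shares of all genes tested, 12.5% in the AKR and 11.5% in the DBA direction. The called ones were Colgalt1 (0.37 ± 0.09), a collagen galactosyltransferase gene, P4hb (0.19 ± 0.05), a subunit of prolyl 4-hydroxylase, and Crtap (0.35 ± 0.11), part of a prolyl 3-hydroxylase complex. Of 13 matrix protease and inhibitor genes, 2 were higher in the AKR cross, Mmp23 (0.45 ± 0.11) and the gelatinase gene Mmp2 (0.29 ± 0.09), and 1 in the DBA cross, the metalloproteinase inhibitor gene Timp1 (-0.45 ± 0.14), with 10 not called and a median of -0.06.

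Receptors of the matrix went both ways. Of 17 tested, 4 were higher in the DBA cross, 3 in the AKR cross and 10 were not called, with a median difference of -0.09. Together 41.2% were called, against 24% of all genes tested. Ddr1, a receptor kinase for collagen, had a 3.40-fold higher DBA level (-1.77 ± 0.12). Its probe set read here, 1 of 8, can match several transcripts, and the others were not examined. Itgb1, the integrin beta 1 chain of most matrix-binding integrins, was 1.27-fold higher in the DBA cross (-0.35 ± 0.06). Sdc4, a heparan sulphate proteoglycan of the cell surface, was 2.24-fold higher in the AKR cross (1.17 ± 0.08). Itgav, an alpha chain of vitronectin and fibronectin receptors, was higher in the DBA cross (-0.33 ± 0.07). In the list for TGF-beta and matrix growth factor signalling, 4 of 20 genes were higher in the DBA cross, 1 in the AKR cross and 15 were not called, with a median of -0.06. Tgfb1, the ligand gene best known for inducing collagen, was 1.73-fold higher in the AKR cross (0.79 ± 0.07), while Tgfbr1, a receptor kinase of the same ligand, was 1.24-fold higher in the DBA cross (-0.31 ± 0.06). Tgfbr3 (-0.24), a coreceptor, and Skil (-0.33), a repressor of the pathway, were higher in the DBA cross. Ccn2, a common target of the pathway, differed by -0.26 ± 0.25 and was not called.

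Matrix genes outside the 42 were called in both directions. Of 21 tested, 5 were higher in the DBA cross, 3 in the AKR cross and 13 were not called, with a median of -0.04. Together 38.1% were called, against 24% of all genes tested. The smallest adjusted p-values were those of Sparcl1 (-0.97 ± 0.10), a relative of Sparc, Matn2, a matrilin gene, Emilin1 (0.56 ± 0.10), an elastic fibre gene, and Agrn (-0.41 ± 0.08), the basement membrane proteoglycan agrin. Matn2 was below the 40th percentile on all 3 AKR arrays and passed the filter through the DBA arrays alone, so its call had to favour the DBA cross and no size is given. All calls in these lists are from limma at an adjusted p under 0.05, over all genes tested.

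Marker genes of the cells that could carry matrix RNA are given beside these results. For each list the level is the log2 of the mean linear value of its genes, so the brightest genes weigh most. The matrix genes had levels of 8.05, 8.16 and 8.07 on the AKR arrays and 8.49, 8.31 and 8.21 on the DBA arrays, without overlap. In the fibroblast list Dpp4 was the brightest gene (mean 9.15) and so weighed most, and no level without it is given. This list ran from 7.03 to 7.14 (AKR) and from 7.19 to 7.29 (DBA). Of its 10 tested genes, 2 were higher in the DBA cross, Pdgfra (-0.49 ± 0.15), the receptor that defines many fibroblasts, and Dpp4 (-0.35 ± 0.08), and 2 in the AKR cross, Clec3b (0.44 ± 0.12) and Meox1 (0.42 ± 0.10). The other 4 of its 14 genes lay below the 40th percentile on all arrays. It was not tested whether fibroblasts or other thymus cells were the source of the Dpp4 RNA. Of 11 smooth muscle and pericyte genes, 1 was higher in the DBA cross, the channel gene Abcc9 (-0.40 ± 0.10), and 0 in the AKR cross, with a median of -0.16 and a level of 7.93 to 7.99 against 7.97 to 8.23. Of 9 endothelial genes, 0 were called (limma), with a median of 0.07 and a level of 7.02 to 7.06 against 6.95 to 7.07. Called shares were 40% for fibroblast, 9.09% for smooth muscle and pericyte and 0% for endothelial genes, against 24% of all genes tested.

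Marker levels of tissues that lie near the thymus differed from array to array. All 10 skeletal muscle genes were highest on DBA replicate 1, where the list level was 10.37, against 5.89 to 7.70 on the AKR arrays and 6.26 and 7.14 on the other DBA arrays. That was 6.37-fold above the next array. Of the 9 tested muscle genes, 0 were called (limma), with a median difference of -1.04. Fat cell genes read 10.16, 10.39 and 9.14 on AKR arrays and 10.92, 10.03 and 10.07 on DBA arrays, again highest on DBA replicate 1 and lowest on AKR replicate 3, with 0 of 7 called (limma). Mesothelial genes, of which 3 of 7 were below the 40th percentile on all arrays, had levels of 5.06 to 5.29 against 5.33 to 5.46. Krt19 (-0.60 ± 0.16) was the 1 of 4 tested that was called. It was below that percentile on 2 of 3 AKR arrays and on 0 DBA arrays. Whether the Krt19 RNA came from mesothelium or from other cells of the thymus was not tested. The cartilage and airway list (5.44 to 5.52 against 5.49 to 5.80) and the parathyroid and thyroid list (5.06 to 5.66 against 4.90 to 6.86) had 0 called of 3 and 0 of 2 (limma). The part of adjoining muscle, fat or mesothelium in the matrix results was not tested. Without DBA replicate 1, 10 of the 12 called matrix genes were called, all but Col4a1 (adjusted p = 0.136, limma) and Lox (0.0831). Col6a3 then differed by -1.79, Lamb1 by -0.89 and Nid1 by -0.84. The same 10 were kept without AKR replicate 1, 2 or 3 or DBA replicate 3.

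Markers of the labelled tissue were present on every array. All 11 thymocyte genes lay above the 40th percentile on every array, with list levels of 11.98 to 12.12 (AKR) and 11.99 to 12.02 (DBA). Of them, Cd3e was higher in the AKR cross (0.30), Cd1d1 in the DBA cross (-0.26) and 9 were not called (limma). All 10 thymic epithelial genes were also above that percentile on every array, with 3 higher in the DBA cross, 2 in the AKR cross, and levels of 10.66 to 10.74 against 10.68 to 10.81.

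**Figure D5:**
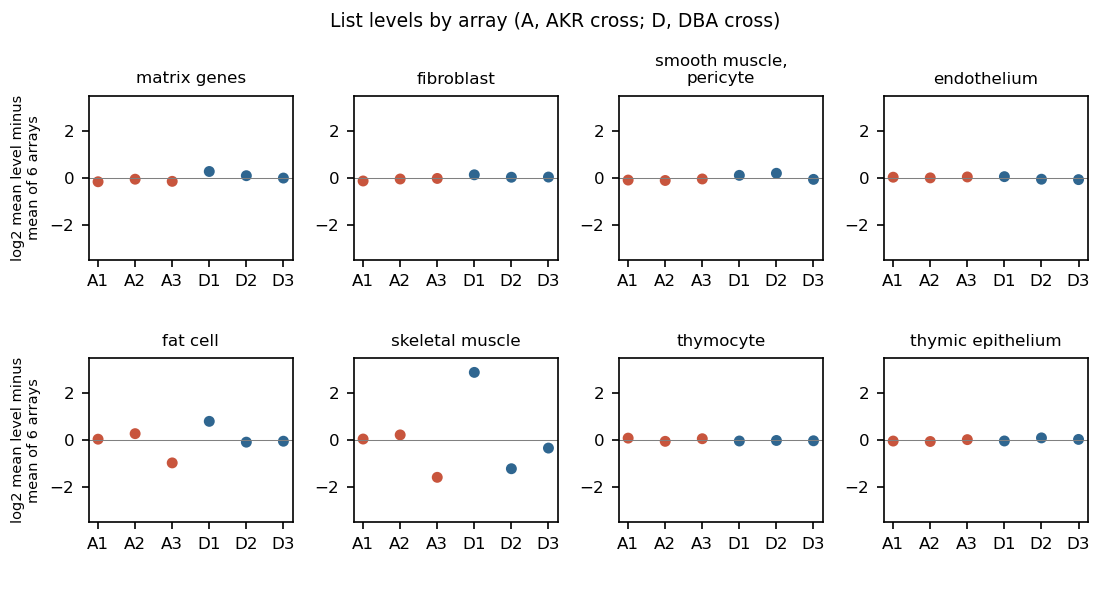
Level of the matrix genes and of 7 marker lists on each array, as the log2 of the mean linear value minus its mean over the 6 arrays (vertical axis, the same in all panels; A1 to A3, AKR replicates in red; D1 to D3, DBA replicates in blue). The skeletal muscle list stands out on DBA replicate 1, at a level of 10.37 against 5.89 to 7.70 elsewhere. The matrix list ranges from 8.05 to 8.49 and is also highest on DBA replicate 1.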

How the data were processed

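Thymus RNA was prepared with Trizol and labelled by the Affymetrix procedure, per the labels' protocols. The log2 values were deposited by the authors, 1 per probe set and array, with array medians from 5.92 to 5.95. Per the submitters' processing notes, the tools include MAS5 and RMA, and which of them was behind these values is not stated in the sources used here. Arrays have no read depth.

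No normalization was added. Of the probe sets, 64 controls were set aside, and the 27385 of 45037 others above the 40th percentile of their array on at least 3 of 6 arrays were tested. The model was limma (version 3.58.1, R 4.3.3; lmFit, then eBayes with a trend), with two-sided p-values adjusted by Benjamini-Hochberg over 1 probe set per gene, and it was tested on simulated data. Groups came from sample titles, and 0 pairs of arrays were identical. Symbols are those of the platform annotation. Plots used matplotlib 3.10.9 (Python 3.11.15).

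The matrix genes and lists were chosen with earlier results of these data known. The text gives per-array values for called members with a difference of at least 0.5 and for the member of each role with the highest mean, and up to 4 others per role. From each other list it takes up to 4 called genes, by smallest adjusted p. Ccn2 falls outside this rule and was chosen after its values were seen. Alternatives changed the filter, the normalization, the variance model or the weights, blocked on replicate number, left out each array or averaged a gene's probe sets. A setting without probe sets of multiple matches was added after seeing the data.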

Additional observations from a re-analysis of the deposited data

How the results depend on the processing

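Over 17 other settings, 621 of 652 values of single members kept their direction and their side of the threshold or were uncalled on both sides, 26 lost a call, 5 gained one and 0 called values changed sign. Col6a3, Col6a2, Efemp1, Postn and Mgp were called in every setting that tested them. All but Col6a2 had 1 probe set, so settings that average or leave out probe sets could not change their differences. The count of members higher in the DBA cross (12) was 6 without sharing of variance between genes and 10 to 12 with 1 array left out, and ran from 9 to 15 in the others. The count higher in the AKR cross was 0 in all settings except 1 without DBA replicate 1 (Sparc), so 0 to 1 with 1 array left out. The median difference of the members ran from -0.20 to -0.089 with 1 array left out, the latter without DBA replicate 1. The 3083 genes called in all fell to 1366 without sharing of variance and to between 1816 and 2498 with 1 array left out, by over 1.5 times without AKR replicate 2 (1947), DBA replicate 2 (1816) or DBA replicate 3 (1929). 

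The arrays of both crosses carry the numbers 1 to 3. Deviations from the cross means correlated at 0.39, 0.07 and 0.37 for same-numbered arrays. As 2 of 3 pairs exceeded 0.1, not all, the samples are treated as sharing only a number, though 5 of 6 arrays correlated best with their own, a hint from the data and not the design. With the replicate number as a block, 15 members were called higher in the DBA cross, with Col3a1, Thbs1 and Timp3 added, and 4193 genes in all. Signal over background limits the dim members: Nid2 and Vcan were not tested, and a filter at the 60th percentile left 28 members.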
